A study of Mus musculus with 6 samples.

Results

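The genes described here encode enzymes that detoxify carbonyl compounds, alcohols, esters, epoxides and amines in the liver. They were chosen by name, as the protein-coding genes of 7 families: the aldehyde dehydrogenases (Aldh), the alcohol dehydrogenases (Adh), the aldo-keto reductases of the Akr1 group, the carboxylesterases (Ces, groups 1 to 5), the flavin-containing monooxygenases (Fmo), the epoxide hydrolases (Ephx) and the aldehyde oxidases (Aox). Akr1d1, a steroid reductase of bile acid synthesis, and Aldh9a1, an enzyme of carnitine synthesis, were left out. This gave 75 of the 45777 genes measured, and 56 of the 75 had enough reads to be tested. The Pak4_KO group held 3 libraries of whole liver from Pak4 flox/flox mice with Alb-Cre, in which the albumin promoter drives Cre recombinase and so directs it to hepatocytes. The WT group held 3 libraries of whole liver from Pak4 flox/flox mice with no Cre named in the labels. Both groups were C57BL/6 and 10 weeks old. The comparison asks how the liver transcriptome differs when hepatocytes lose Pak4, a serine/threonine kinase.

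Hepatocytes make most of these enzymes, which handle compounds from food, alcohol, drugs and the cell's own lipids. Adh enzymes turn alcohols into aldehydes, which Aldh enzymes oxidise to acids and Akr1 enzymes reduce back to alcohols. Ces enzymes cut esters and amides, among them drugs and stored lipids, Ephx enzymes open epoxides to diols, Fmo enzymes oxidise nitrogen and sulfur, and Aox enzymes oxidise aldehydes and nitrogen heterocycles with a molybdenum cofactor.

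Library totals ran from 42632491 to 48044181 reads in the Pak4_KO group and from 39603272 to 52521400 reads in the WT group. Pak4 itself stood at 1.37, 2.24 and 1.90 CPM in the Pak4_KO livers, against 5.93, 7.15 and 6.44 CPM in the WT livers. Every Pak4_KO library was below every WT library, with a log2 fold change of -1.82 (adjusted p = 0.0169, SE 0.24) by edgeR's quasi-likelihood test, the test behind each adjusted p given unless another is named. With Pak4_KO replicate 3, WT replicate 1 or WT replicate 2 left out, its adjusted p was 0.0936, 0.0562 or 0.0608. Over all 16197 genes tested, 76 passed an adjusted p of 0.05, and the count was 37 without Pak4_KO replicate 3, 38 without Pak4_KO replicate 2, 44 without WT replicate 1 and 46 without WT replicate 2. The labels do not say whether each library is a separate animal, and the p-values reflect how far the libraries of a group vary. In whole liver, fewer cells of a type and less RNA per cell cannot be told apart. The 7 hepatocyte markers measured were led by the albumin gene. They summed to 76742 to 92429 CPM in the Pak4_KO livers, against 69536 to 91413 CPM in the WT livers. CPM are reads scaled to the library total after its adjustment by TMM, described below.

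None of the 56 tested enzyme genes passed the test, against 0.469% of all genes tested, and the smallest adjusted p was 0.116, for Ces2e. At an unadjusted p under 0.05 there were 12 genes, 11 higher and 1 lower in the Pak4_KO livers, or 12 of 56 where 8.21% of all genes reached that level. Among all genes, 4.51% reached it with a higher and 3.69% with a lower value in Pak4_KO livers. In CPM, the 3 Pak4_KO values and the 3 WT values did not overlap for 14 genes, against 13.4% of all genes. Among them, Akr1b7, Aldh2, Aldh3a2, Aldh3b1, Ces1e, Ces2e, Ephx1, Ephx2, Fmo2 and Fmo4 were higher in each Pak4_KO liver, and Aldh1l1, Aldh16a1 and Ces3b were lower. Higher values without overlap were found for 7.35% of all genes and lower ones for 6.06%. Log2 fold changes were positive for 30 enzyme genes and negative for 26, with a median of 0.038 beside 0.0045 over all genes tested. Of the 56, 22 turned sign without 1 library or another, and the share of all genes that did so is not given here. DESeq2's Wald test, applied to the same counts, called 4 of the enzyme genes, each higher in the Pak4_KO livers: Ces2e (adjusted p = 0.00120), Akr1b7 (adjusted p = 0.00769), Aldh3a2 (adjusted p = 0.0317) and Ephx1 (adjusted p = 0.0404). That test called 334 genes in all, 2.06% of those tested. limma-trend called Ces2e alone of the 56, on log2(TPM + 1) (adjusted p = 0.0429, with 0.389% of all genes called) and on log2(TPM + 0.1) (adjusted p = 0.0316, with 0.593% called).

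**Figure D1:**
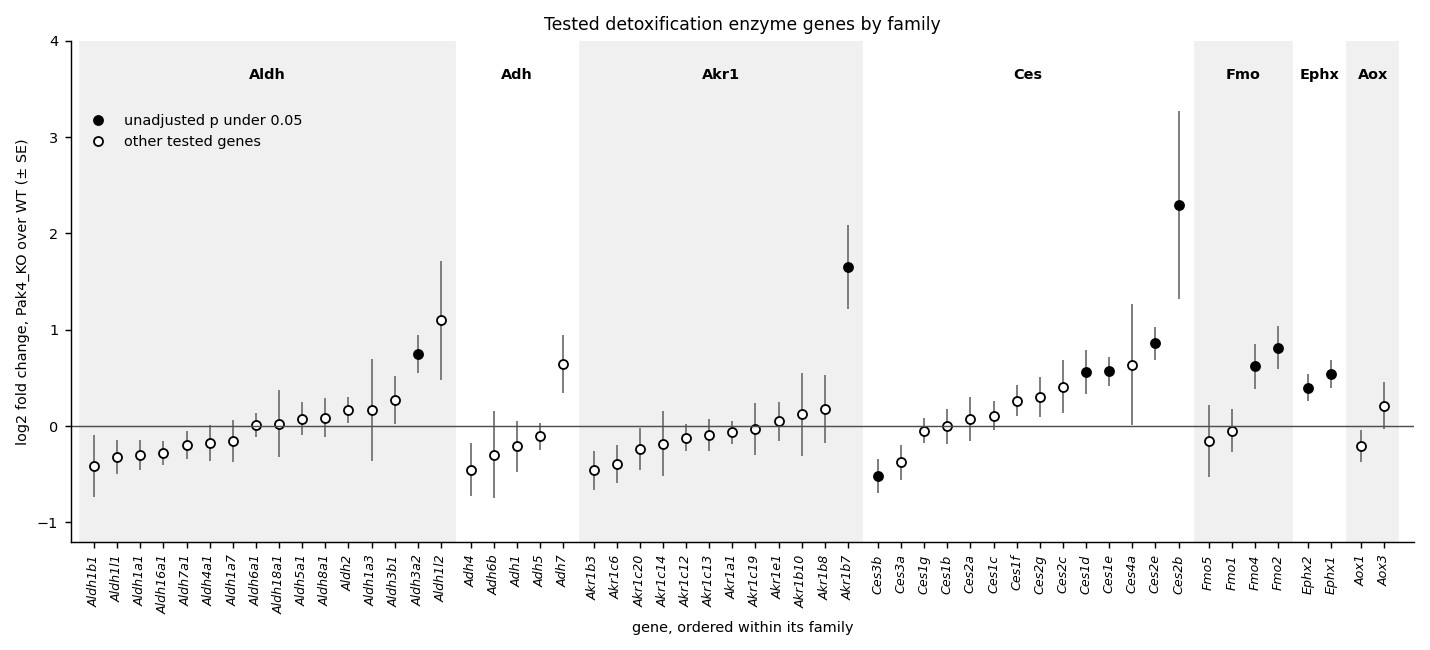
Log2 fold change (y axis, Pak4_KO over WT) of 55 tested enzyme genes, grouped by family and ordered within each (x axis). Bars are the SE from edgeR, and filled points are the 11 of them with an unadjusted p under 0.05, of which Ces3b alone lies below 0.

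Promoter windows of the 4 genes called by DESeq2 are shown, as these genes came nearest to a call. The windows run from 250 bases before to 50 bases after a start in RefSeq (GRCm38.p6), 5′ to 3′ on the gene's strand. Of the 75 genes, 59 had such a window. For Ces2e, Ephx1 and Akr1b7 that start is the start of the gene as its coordinates are given here. The Aldh3a2 window lies wholly inside the gene, which begins at 61267528 on the minus strand, so it does not cover that outermost start. Capitals mark matches, on both strands, to 4 motifs: the nuclear receptor half-site AGGTCA, the antioxidant response element core TGACNNNGC, the GC box GGGCGG and the TATA box TATAAA, none of which overlapped another match here. Ces2e lies on the plus strand at chr8:104926010-104926309, Ephx1 on the minus strand at chr1:181017520-181017819, Aldh3a2 on the minus strand at chr11:61267137-61267436 and Akr1b7 on the plus strand at chr6:34412112-34412411.
Ces2e: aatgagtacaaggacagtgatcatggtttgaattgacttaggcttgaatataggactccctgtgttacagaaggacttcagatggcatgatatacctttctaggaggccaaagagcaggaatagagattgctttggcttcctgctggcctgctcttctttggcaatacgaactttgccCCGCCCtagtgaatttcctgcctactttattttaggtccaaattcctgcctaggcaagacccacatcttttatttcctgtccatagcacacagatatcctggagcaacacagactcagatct
Ephx1: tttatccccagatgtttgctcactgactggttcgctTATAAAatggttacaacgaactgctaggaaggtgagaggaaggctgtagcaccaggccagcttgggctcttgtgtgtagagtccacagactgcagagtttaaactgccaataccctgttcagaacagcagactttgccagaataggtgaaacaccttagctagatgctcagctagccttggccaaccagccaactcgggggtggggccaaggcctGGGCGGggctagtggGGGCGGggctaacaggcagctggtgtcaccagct
Aldh3a2: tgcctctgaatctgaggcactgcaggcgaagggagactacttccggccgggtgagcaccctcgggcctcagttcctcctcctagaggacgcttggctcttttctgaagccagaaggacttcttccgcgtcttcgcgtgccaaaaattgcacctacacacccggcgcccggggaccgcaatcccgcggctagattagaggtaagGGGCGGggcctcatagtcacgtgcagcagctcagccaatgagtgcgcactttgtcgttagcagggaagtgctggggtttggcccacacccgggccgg
Akr1b7: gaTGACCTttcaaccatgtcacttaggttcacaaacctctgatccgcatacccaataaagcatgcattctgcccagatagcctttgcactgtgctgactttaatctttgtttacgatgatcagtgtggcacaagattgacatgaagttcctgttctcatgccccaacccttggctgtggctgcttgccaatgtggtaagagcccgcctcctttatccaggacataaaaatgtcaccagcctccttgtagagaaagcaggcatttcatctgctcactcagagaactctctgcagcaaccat
The Ces2e window held 1 GC box, the Ephx1 window 2 GC boxes and 1 TATA box, the Aldh3a2 window 1 GC box and the Akr1b7 window 1 nuclear receptor half-site. These are matches of letters only. In the Ephx1 window, where the gene starts after base 250, the TATAAA match began at base 37 and the GC boxes at bases 252 and 267. Of the 32851 promoter windows in the same RefSeq set, 35.7% held a GC box, 16.3% the half-site, 13.6% the TATA box and 12.4% the antioxidant core. The Aldh3a2 window was 61.7% G and C with 21 CpG dinucleotides, where the Ces2e window was 44.7% G and C with 2. No motif searched for was found in all 4 windows.

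Carboxylesterases, which hydrolyse ester drugs and neutral lipids, made up the largest summed level of the 7 families, and their genes on chromosome 8 differed in direction by group. The 5 tested Ces2 genes all had positive log2 fold changes (median 0.41), the 2 Ces3 genes both had negative ones, and the 6 tested Ces1 genes were split 4 to 2. Ces2b and Ces2c turned negative without Pak4_KO replicate 1, and Ces2a (-0.13) turned negative without WT replicate 2. Of the Ces1 genes with negative values, Ces1g (0.036) turned positive without WT replicate 3, and Ces1b, at -0.0015, turned positive without any one of 4 libraries. Ces2e (NCBI gene 234673, chromosome 8, 104926260 to 104934672, GRCm38) had 227, 191 and 158 CPM in the Pak4_KO livers, against 89.0, 117 and 112 CPM in the WT livers. The lowest Pak4_KO library was above the highest WT library, and the log2 fold change was 0.86 (adjusted p = 0.116, SE 0.17), or 1.81-fold. Over all alternatives run it lay between 0.72 and 0.98, and with 1 library left out its adjusted p was 0.149 to 0.376. Of the 50-base windows of its transcript, 3.36% also occur in transcripts of other genes.

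Ces3b and Ces3a, abundant esterases of the liver's endoplasmic reticulum, lie at the other end of the same gene cluster. Ces3b (chromosome 8, 105083733 to 105093929) had 478, 419.6 and 308 CPM in the Pak4_KO livers, against 553, 585 and 592 CPM in the WT livers. All 3 Pak4_KO values were below all 3 WT values, with Pak4_KO replicate 3 the lowest, and the log2 fold change of -0.52 (adjusted p = 0.44, SE 0.18) did not pass. Ces3a (chromosome 8, 105048576 to 105061928) had 1812, 1430.1 and 1178 CPM in the Pak4_KO livers, against 1782, 1957 and 1992 CPM in the WT livers. Its groups overlapped at Pak4_KO replicate 1, and its log2 fold change was -0.37 (adjusted p = 0.664, SE 0.18). Ces3a and Ces3b share 30.9% and 26.1% of their 50-base windows with each other, so the division of reads between them is uncertain.

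Ces1e, also called egasyn, holds beta-glucuronidase in the endoplasmic reticulum. It lies in the Ces1 cluster (chromosome 8, 93201218 to 93229631) and had 121, 129 and 120.2 CPM in the Pak4_KO livers, against 73.9, 74.5 and 101 CPM in the WT livers. No value overlapped, WT replicate 3 being the nearest to the Pak4_KO range, and the log2 fold change was 0.57 (adjusted p = 0.265, SE 0.15). Its neighbour Ces1d, a triacylglycerol hydrolase, chosen for mention after its values were seen, had 379, 445 and 509.7 CPM in the Pak4_KO livers, against 264, 229 and 409 CPM in the WT livers. Here WT replicate 3 lay inside the Pak4_KO range, and the log2 fold change was 0.56 (adjusted p = 0.562, SE 0.23). Ces1c, a carboxylesterase secreted into mouse plasma and the most abundant of all 75 transcripts per length, had 2067, 2144 and 1888 CPM in the Pak4_KO livers, against 1697, 1881 and 2074 CPM in the WT livers, a log2 fold change of 0.11 (adjusted p = 0.927, SE 0.15) with overlapping groups.

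A single library set the values of Ces2b and Ces2c, both named after their values were seen. Ces2b had 382, 34 and 33 reads in the Pak4_KO livers, against 22, 47 and 28 reads in the WT livers, so that Pak4_KO replicate 1 alone was high. Its log2 fold change of 2.29 (adjusted p = 0.589, SE 0.97) became -0.024 without that library. Ces2c had 78.3, 42.5 and 34.4 CPM in the Pak4_KO livers, against 38.2, 39.4 and 39.1 CPM in the WT livers, and its log2 fold change of 0.41 (adjusted p = 0.787, SE 0.27) likewise became -0.017 without Pak4_KO replicate 1. Ces2c shares 42.2% of its windows with other transcripts, most of them with the pseudogene Ces2d-ps. The remaining tested carboxylesterases, Ces1b, Ces1f, Ces1g, Ces2a, Ces2g and Ces4a, had log2 fold changes from -0.05 to 0.64 and adjusted p-values from 0.748 to 0.999, and their groups all overlapped.

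**Figure D2:**
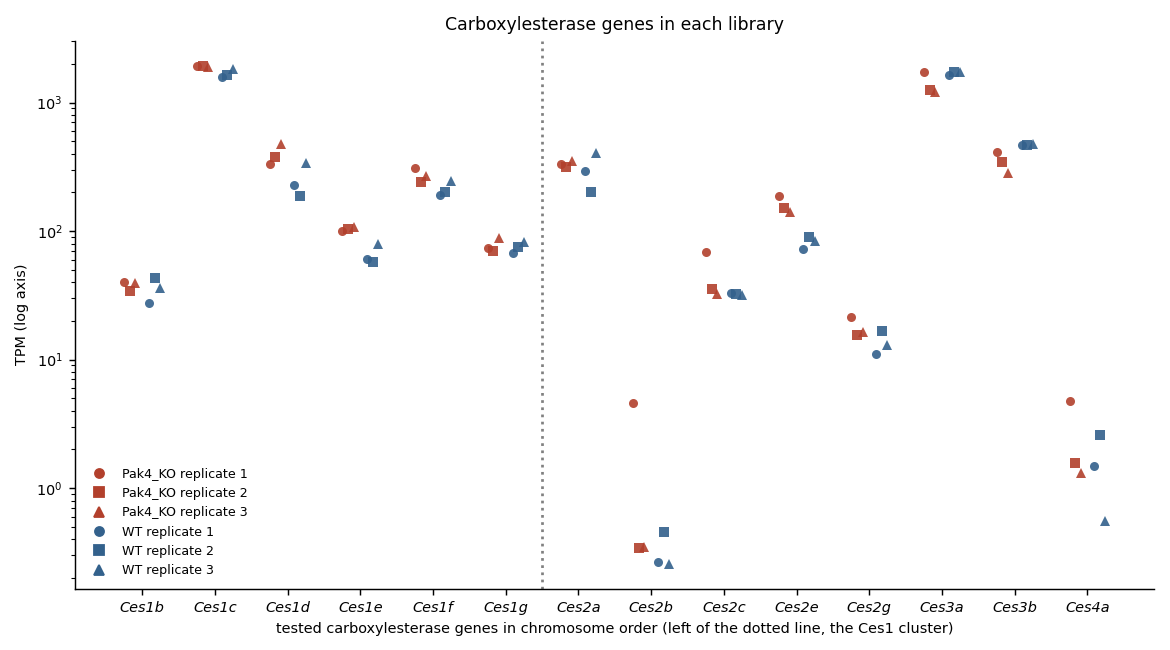
TPM (log axis) of the 14 tested carboxylesterase genes in each library, in chromosome order, with Pak4_KO libraries left of WT libraries for each gene. Ces2e is higher in all 3 Pak4_KO libraries, Ces3b lower in all 3, and Ces2b is high in Pak4_KO replicate 1 alone.

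Both tested epoxide hydrolases were higher in each Pak4_KO liver than in each WT liver, and neither passed the test. Ephx1, the microsomal enzyme that hydrolyses epoxides of drugs and aromatic hydrocarbons, lies on chromosome 1, 180989556 to 181017569, and had 262, 222 and 299 CPM in the Pak4_KO livers, against 183, 175 and 180.3 CPM in the WT livers. The WT libraries lay within a narrow range and the Pak4_KO libraries spread more widely above it. Its log2 fold change was 0.54 (adjusted p = 0.255, SE 0.14), and 0.43 to 0.65 over all alternatives run. Ephx2, the soluble enzyme that turns fatty acid epoxides into diols, lies on chromosome 14, 66084372 to 66124522, and had 853, 794 and 729 CPM in the Pak4_KO livers, against 549, 655 and 599 CPM in the WT livers. The groups did not overlap, with a log2 fold change of 0.40 (adjusted p = 0.467, SE 0.14), or 1.32-fold. Ephx2 shares no 50-base window with another transcript and Ephx1 shares 1.89%. Ephx3 had 12, 0 and 0 reads in the Pak4_KO livers, against 4, 11 and 0 reads in the WT livers. Ephx4 had 9 reads in all Pak4_KO livers together and 0 in the WT livers, and neither of these was tested.

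**Figure D3:**
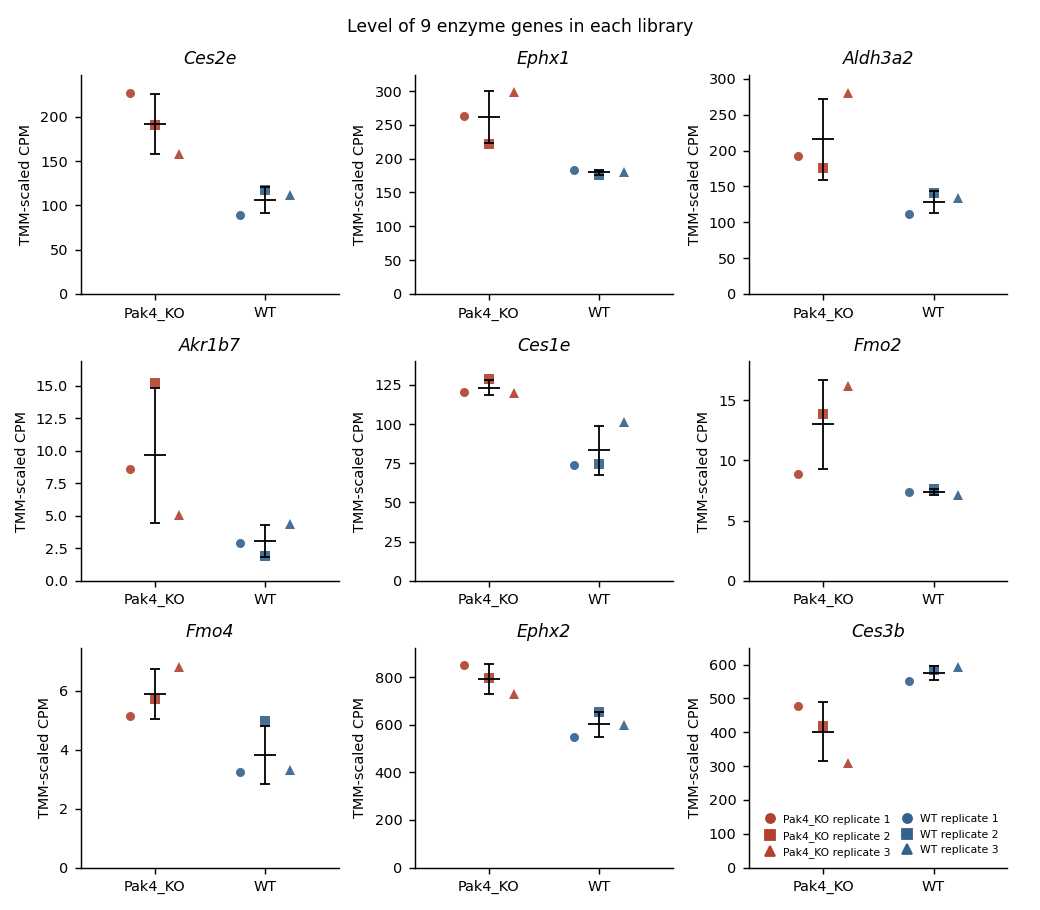
TMM-scaled CPM (y axes from 0) of 9 enzyme genes in each library, Pak4_KO left of WT. Symbols are libraries, and black lines are the mean and SD of 3. All 9 are from the 14 of 56 tested enzyme genes whose groups do not overlap, against 13.4% of all genes. The panels therefore show no overlap by choice, with Ces3b lower and the other 8 higher in the Pak4_KO libraries. Aldh1l1 and Aldh16a1, lower without overlap, and Aldh2 and Aldh3b1, higher without overlap, are not shown.

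Among the 16 tested aldehyde dehydrogenases, Aldh3a2 had the smallest p. It encodes the fatty aldehyde dehydrogenase of the endoplasmic reticulum, the enzyme lost in human Sjögren-Larsson syndrome. Aldh3a2 (chromosome 11, 61223417 to 61267528) had 192, 175 and 280.2 CPM in the Pak4_KO livers, against 111, 141 and 133 CPM in the WT livers. All Pak4_KO values were above all WT values, with Pak4_KO replicate 3 standing highest. The log2 fold change was 0.75 (adjusted p = 0.256, SE 0.20), and with 1 library left out the adjusted p ran from 0.276 to 0.690. Aldh3b1, the other tested gene of the fatty and aromatic aldehyde group and named after its values were seen, was low in every library, at 1.84, 1.71 and 1.60 CPM in the Pak4_KO livers, against 1.49, 1.58 and 1.21 CPM in the WT livers. Its groups did not overlap, with a log2 fold change of 0.27 (adjusted p = 0.872, SE 0.25).

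Aldh2, the mitochondrial enzyme that clears acetaldehyde, had 785, 657 and 683 CPM in the Pak4_KO livers, against 625, 645 and 623 CPM in the WT livers. Those groups did not overlap, but the log2 fold change was 0.17 (adjusted p = 0.831, SE 0.13). Aldh1b1, also mitochondrial and named after its values were seen, showed a log2 fold change of -0.41 (adjusted p = 0.83, SE 0.32) with overlapping groups. Aldh1l1, which oxidises the folate carrier of formate, was the most abundant aldehyde dehydrogenase per length and had 1512, 1341 and 1068 CPM in the Pak4_KO livers, against 1519.7, 1866 and 1519 CPM in the WT livers. The highest Pak4_KO value lay just under the lowest WT value, and the log2 fold change was -0.32 (adjusted p = 0.71, SE 0.18). Aldh1a1, a cytosolic retinaldehyde dehydrogenase, had 651, 523 and 515 CPM in the Pak4_KO livers, against 641, 774 and 665 CPM in the WT livers. Pak4_KO replicate 1 lay above WT replicate 1, so the groups overlapped, and the log2 fold change was -0.30 (adjusted p = 0.683, SE 0.15). Aldh1a1 and Aldh1a7 share 6.54% and 7.49% of their windows with each other.

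Aldh16a1 was the single enzyme gene within 20 Mb of Pak4, at a distance of 16.5 Mb (chromosome 7, 45141833 to 45154536). It had 59.6, 51.3 and 48.6 CPM in the Pak4_KO livers, against 64.6, 67.5 and 61.5 CPM in the WT livers. No Pak4_KO value reached a WT value, and the log2 fold change was -0.28 (adjusted p = 0.62, SE 0.13). The 5 genes of amino acid and intermediate catabolism, Aldh4a1, Aldh5a1, Aldh6a1, Aldh7a1 and Aldh18a1, lay between -0.19 and 0.08 on the log2 scale, each with overlapping groups. Aldh4a1 shares 45.0% of its windows with the gene model Gm21969. The remaining aldehyde dehydrogenases tested were Aldh1a3, Aldh1a7, Aldh8a1 and Aldh1l2, with log2 fold changes of 0.17, -0.16, 0.09 and 1.10. Aldh1l2 rested on 67 reads in the Pak4_KO livers and 30 in the WT livers.

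For the alcohol dehydrogenases, all on 1 cluster of chromosome 3, no gene separated the groups. Adh1, the class I enzyme that oxidises ethanol, had 1065, 829 and 836 CPM in the Pak4_KO livers, against 737, 1534 and 890.4 CPM in the WT livers. WT replicate 2 stood far above the other libraries, and the log2 fold change of -0.21 (adjusted p = 0.923, SE 0.27) became 0.16 without it. Adh4, a class II enzyme, had 111, 86.9 and 50.9 CPM in the Pak4_KO livers, against 91.5, 136 and 113 CPM in the WT livers, a log2 fold change of -0.45 (adjusted p = 0.741, SE 0.27), with the lowest value in Pak4_KO replicate 3. Adh5, the class III enzyme that clears formaldehyde bound to glutathione, had the smallest SE of the family, at 281, 291 and 239 CPM in the Pak4_KO livers, against 256, 314 and 301 CPM in the WT livers, with a log2 fold change of -0.11 (adjusted p = 0.927, SE 0.14). Adh7, a class IV enzyme for retinol known mainly from the stomach, was low, at 4.18, 6.35 and 6.54 CPM in the Pak4_KO livers, against 3.68, 4.90 and 2.35 CPM in the WT livers. Its groups overlapped at Pak4_KO replicate 1, and its log2 fold change was 0.64 (adjusted p = 0.648, SE 0.30). Adh6b, at most 1.27 CPM in any library, had a log2 fold change of -0.29.

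Of the 12 tested aldo-keto reductases, 4 had positive log2 fold changes and 8 negative ones, and Akr1b7 alone separated the groups. Akr1b7, an aldose reductase relative known from the mouse vas deferens and adrenal gland, lies on chromosome 6, 34412362 to 34423137, and had 8.64, 15.3 and 5.06 CPM in the Pak4_KO livers, against 2.90, 1.89 and 4.39 CPM in the WT livers. The groups did not overlap, but Pak4_KO replicate 3 lay close to WT replicate 3. The log2 fold change was 1.65 (adjusted p = 0.257, SE 0.44), or 3.15-fold, and it ranged from 1.16 to 2.01 over all alternatives run. Akr1b3, the aldose reductase of the polyol pathway, had 4.60, 5.88 and 4.88 CPM in the Pak4_KO livers, against 5.73, 8.14 and 7.24 CPM in the WT livers. Pak4_KO replicate 2 lay above WT replicate 1, and the log2 fold change was -0.46 (adjusted p = 0.61, SE 0.20). Since 59.9% of its windows occur in other transcripts, chiefly the gene model Gm6644, its counts are uncertain. Akr1b8 and Akr1b10, the other genes of that cluster, had log2 fold changes of 0.17 and 0.12.

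All 6 tested Akr1c genes had negative log2 fold changes (median -0.15), none past the test and each with overlapping groups. Akr1c6, a 17beta-hydroxysteroid dehydrogenase of the mouse liver, had 702, 541 and 452 CPM in the Pak4_KO livers, against 653, 706 and 867 CPM in the WT livers, a log2 fold change of -0.39 (adjusted p = 0.667, SE 0.20). Akr1c14, a 3alpha-hydroxysteroid dehydrogenase, had 248, 128 and 91.8 CPM in the Pak4_KO livers, against 155, 222 and 155 CPM in the WT livers. Pak4_KO replicate 1 was its highest library and Pak4_KO replicate 3 its lowest, and the log2 fold change of -0.18 (adjusted p = 0.952, SE 0.34) turned to 0.085 without Pak4_KO replicate 3 and to 0.0086 without WT replicate 2. The other 4, Akr1c12, Akr1c13, Akr1c19 and Akr1c20, lay between -0.23 and -0.03. Of these, Akr1c19 became 0.079 and Akr1c13 became 0.0060 without Pak4_KO replicate 3, and without WT replicate 2 they became 0.35 and 0.024. Akr1c12 and Akr1c13 share 28.6% of their windows with each other. Akr1a1, an aldehyde reductase that takes part in ascorbate synthesis in mice, lay within a narrow range, at 244, 258 and 244 CPM in the Pak4_KO livers, against 250.2, 257 and 273 CPM in the WT livers, with a log2 fold change of -0.07 (adjusted p = 0.951, SE 0.12). Akr1e1 had a log2 fold change of 0.05.

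Of the flavin-containing monooxygenases, Fmo2 and Fmo4 were higher in each Pak4_KO liver and Fmo1 and Fmo5 were not, and none of these passed the test. Fmo2, best known from the lung, had 8.90, 13.8 and 16.2 CPM in the Pak4_KO livers, against 7.37, 7.66 and 7.14 CPM in the WT livers. The WT libraries were nearly equal and the lowest Pak4_KO library lay just above them, for a log2 fold change of 0.81 (adjusted p = 0.278, SE 0.22). Fmo4 had 5.14, 5.72 and 6.82 CPM in the Pak4_KO livers, against 3.23, 4.97 and 3.30 CPM in the WT livers, with no overlap and a log2 fold change of 0.62 (adjusted p = 0.517, SE 0.23).

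Fmo5, the most abundant monooxygenase of the family, had 340.2, 208 and 372 CPM in the Pak4_KO livers, against 195, 551 and 274 CPM in the WT livers. WT replicate 2 was the highest of all libraries and WT replicate 1 the lowest, and the log2 fold change of -0.15 (adjusted p = 0.968, SE 0.37) became 0.38 without WT replicate 2. Fmo1 had 68.7, 40.3 and 51.8 CPM in the Pak4_KO livers, against 48.5, 69.3 and 48.5 CPM in the WT livers, with a log2 fold change of -0.05 (adjusted p = 0.99, SE 0.22), or 0.0018 when scaled by library size only, a scaling that moved the median of all genes by 0.051. In chromosome order Fmo1 lies between Fmo4 and Fmo2, within a cluster of 191 kb on chromosome 1.

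The aldehyde oxidases showed no separation. Aox3, the main aldehyde oxidase of mouse liver, had 864, 621 and 468 CPM in the Pak4_KO livers, against 639, 617 and 428 CPM in the WT livers. Pak4_KO replicate 1 was the highest and WT replicate 3 the lowest library, and the log2 fold change of 0.21 (adjusted p = 0.908, SE 0.25) became -0.044 without Pak4_KO replicate 1. Aox1, which also oxidises retinaldehyde, had 103, 118 and 119 CPM in the Pak4_KO livers, against 122, 161 and 109 CPM in the WT livers, a log2 fold change of -0.21 (adjusted p = 0.83, SE 0.16). Aox2 had 6 reads in all Pak4_KO livers together and 7 in the WT livers.

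In TPM, which corrects for length and allows levels of different genes to be compared, the 75 genes made up 1.07% to 1.30% of each library. Ces1c (1800.2 TPM on average over the 6 libraries), Ces3a (1546 TPM), Adh1 (1179.8 TPM), Akr1c6 (812 TPM) and Aldh1l1 (795 TPM) held 52.7% of that sum. Of genes separating the groups in CPM, Aldh1l1 (795 TPM), Aldh2 (296 TPM), Ephx2 (573 TPM), Ces3b (408 TPM) and Ephx1 (217 TPM) were abundant. Akr1b7 (8.61 TPM) and Fmo2 (4.19 TPM) were low. In TPM the groups overlapped for Aldh1l1, with 838 TPM in Pak4_KO replicate 1 against 789 TPM in WT replicate 3. They also overlapped for Aldh16a1, with 39.9 against 38.7 TPM in the same libraries.

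Summed over a family, the epoxide hydrolases alone of the 7 families separated the groups. Their summed level was 976, 849 and 969.9 TPM in the Pak4_KO livers, against 634, 673 and 636 TPM in the WT livers. All Pak4_KO sums were above all WT sums, with a ratio of 1.44 in TPM and 1.35 in CPM. Ephx1 and Ephx2 made up nearly all of it, as Ephx3 and Ephx4 averaged 0.068 and 0.038 TPM. The sum thus restates the values of Ephx1 and Ephx2 given above and is no separate result. Carboxylesterases summed to 5108 ± 381 TPM in the Pak4_KO livers and 4917 ± 364 TPM in the WT livers (SD, n = 3 each). Aldehyde dehydrogenases summed to 2368 ± 261 TPM in the Pak4_KO livers and 2475 ± 234 TPM in the WT livers. For the Akr1 genes the sums were 1351 ± 214 TPM in the Pak4_KO livers and 1522 ± 119 TPM in the WT livers. The sums of these 3 families overlapped between the groups, as did those of the remaining ones. In TPM the ratios were 0.926 for Adh, 1.00 for Fmo and 1.13 for Aox. In CPM the ratio was 0.982 for Ces, where it was 1.04 in TPM, and 0.933 for Fmo. The direction for Ces thus depended on the unit.

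**Figure D4:**
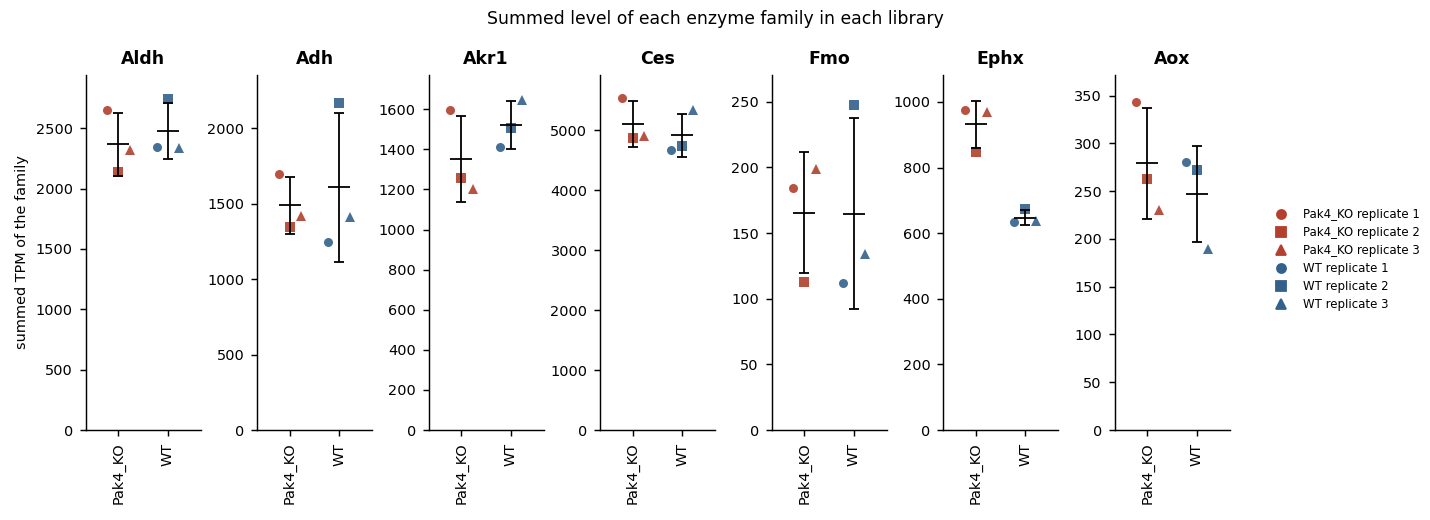
Summed TPM of each enzyme family in each library (y axes from 0), Pak4_KO left of WT, with the mean and SD of 3 libraries in black. The Ephx sums are higher in all 3 Pak4_KO libraries, and the other 6 families overlap.

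Single libraries stood apart in the same way for many of the enzyme genes. Among the Pak4_KO libraries, replicate 1 was the highest for 36 of 56 genes (64.3%), where it was the highest for 37.0% of all genes tested. Among the WT libraries, replicate 2 was the highest for 36 of 56 genes (64.3%), against 37.6% of all genes, and replicate 1 was the lowest for 34 (60.7%), against 28.2%. WT replicate 1 was the highest of all 6 libraries for 0 of the 56 genes. Without Pak4_KO replicate 1, the genes at an unadjusted p under 0.05 numbered 19 of 58 tested (32.8%), against 9.24% of all genes in that fit. Those without overlap numbered 27 there (46.6%), against 26.4% of all genes. Without WT replicate 1, 24 of 58 did not overlap (41.4%), against 20.3% of all genes. At an unadjusted p under 0.05 there were 10 of 58 (17.2%) in that fit, against 6.17% of all genes. With 2 libraries against 3, groups overlap less often by construction, in the enzyme genes and in all genes alike. None of the 56 genes passed the adjusted test with any 1 library left out.

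Some markers of hepatocytes, other cells, liver zones and sex-biased expression, named below, separated the groups, as 13.4% of all genes tested did. The share of the markers that did so is not given here, so it cannot be weighed against that. The 5 neutrophil markers each had a negative log2 fold change, none past the test, and summed to 19.4 to 24.0 CPM in the Pak4_KO livers, against 29.4 to 53.6 CPM in the WT livers. Of the 5 exocrine pancreas markers 4 were at 0, and Cela1 gave 2.98 to 9.30 CPM in the Pak4_KO livers, against 10.2 to 11.5 CPM in the WT livers. A list of 7 female-biased liver genes summed to 299.8 to 607 CPM in the Pak4_KO livers, against 11.4 to 14.6 CPM in the WT livers. Cyp2a4 gave nearly all of the Pak4_KO sums and was the 1 gene called of 4 tested, where 0.469% of all genes were called. Without Cyp2a4 the sums were 4.34 to 7.34 CPM in the Pak4_KO livers, against 1.37 to 4.99 CPM in the WT livers, and Sult2a1 was at 0 in every library. A list of 7 male-biased genes summed to 3323 to 4404 CPM in the Pak4_KO livers, against 3804 to 7051 CPM in the WT livers. Of these 7, 1 was called, against 0.469% of all genes: Moxd1, which was lower in the Pak4_KO livers. Summed markers of cholangiocytes, endothelium, macrophages, stellate cells, lymphocytes, erythroid cells, fat, gut and of the pericentral and periportal zones overlapped between the groups, but members of several lists leaned 1 way. Log2 fold changes were positive for 7 of 7 endothelial, 6 of 7 cholangiocyte and 5 of 6 stellate markers and negative for 6 of 6 Kupffer cell and macrophage markers, and none of these passed the test. Single markers that separated the groups are named after their values were seen. Vwf of the endothelium stood at 15.1 to 29.9 CPM in the Pak4_KO livers, against 7.26 to 12.9 CPM in the WT livers, and Lrat of stellate cells at 13.2 to 19.2 CPM in the Pak4_KO livers, against 7.91 to 10.3 CPM in the WT livers. For the cholangiocyte marker Pkhd1 the range was 14.7 to 18.8 CPM in the Pak4_KO livers, against 10.3 to 11.4 CPM in the WT livers. Cd68 of macrophages stood at 6.41 to 7.15 CPM in the Pak4_KO livers, against 7.18 to 13.8 CPM in the WT livers. Epcam, Cfd, Lhpp, A1bg and Alb were also higher in each Pak4_KO liver, and Lgals4, Cxcr2, S100a8, S100a9, Serpina1a and Cyp7b1 lower, none of them past the test. The part of these markers in the enzyme values was not tested.

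The 19 genes not tested had between 0 and 43 reads over all 6 libraries. Akr1cl, Aldh3b2, Ces5a, Fmo6 and Fmo9 had no read, and a count of 0 allows up to 0.0600 to 0.0707 CPM in a Pak4_KO library and 0.0596 to 0.0757 CPM in a WT library, from 3 reads and for counting error only. Some others, named after their values were seen, were unevenly spread. Akr1c18 had 11, 0 and 3 reads in the Pak4_KO livers, against 0, 0 and 0 reads in the WT livers. Aldh1a2, a retinaldehyde dehydrogenase, had 0, 0 and 5 reads in the Pak4_KO livers, against 8, 9 and 6 reads in the WT livers. At these depths no difference could be read. Beside Aox2, Ephx3 and Ephx4, described above, the remaining ones were Adh6a, Akr1c21, Aldh3a1, Aldh3b3, Aox4, Ces1a, Ces1h, Ces2f and Ces2h.

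Other enzymes and regulators of the same chemistry gave the same count: 0 of the 57 tested genes in 5 lists passed, against 0.469% of all genes. Of the 57, 9 had an unadjusted p under 0.05, 4 higher and 5 lower in the Pak4_KO livers. Among all genes 8.21% reached that level, 4.51% with a higher and 3.69% with a lower value. The groups did not overlap for 13 of the 57, 4 higher and 9 lower in the Pak4_KO livers. Among all genes 13.4% did not overlap, 7.35% higher and 6.06% lower. Among 16 carbonyl reductases, Rdh16, a retinol dehydrogenase, had 64.8, 69.9 and 83.8 CPM in the Pak4_KO livers, against 35.7, 57.7 and 37.3 CPM in the WT livers, a log2 fold change of 0.74 (adjusted p = 0.278, SE 0.20), and Adhfe1, a mitochondrial hydroxyacid transhydrogenase, had one of 0.37 (adjusted p = 0.524, SE 0.14). Among 11 ester hydrolases, Afmid, the formamidase of tryptophan breakdown, had 42.1, 29.3 and 41.4 CPM in the Pak4_KO livers, against 65.0, 58.7 and 75.4 CPM in the WT livers. Its groups did not overlap, and its log2 fold change was -0.82 (adjusted p = 0.134, SE 0.17). Nceh1, a neutral cholesterol ester hydrolase, had 81.6, 125 and 125 CPM in the Pak4_KO livers, against 62.9, 44.7 and 62.1 CPM in the WT livers. It too separated the groups, with a log2 fold change of 0.97 (adjusted p = 0.138, SE 0.21). DESeq2 called both, with an adjusted p = 0.00380 for Afmid and an adjusted p = 0.00259 for Nceh1, where it called 2.06% of all genes.

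Among 15 genes of amine oxidation and the molybdenum cofactor, monoamine oxidase A (Maoa) showed a log2 fold change of 0.54 (adjusted p = 0.483, SE 0.19). Mocs2, which makes the cofactor that the aldehyde oxidases need, had one of -0.41 (adjusted p = 0.541, SE 0.16). On the alcohol side, of 5 genes, sorbitol dehydrogenase (Sord) had 589, 441 and 437 CPM in the Pak4_KO livers, against 598, 903 and 638 CPM in the WT livers, with a log2 fold change of -0.54 (adjusted p = 0.508, SE 0.20). Cyp2e1, a cytochrome P450 that also oxidises ethanol, had one of -0.29 (adjusted p = 0.729, SE 0.17). Of 10 regulators, the aryl hydrocarbon receptor (Ahr) showed a log2 fold change of -0.46 (adjusted p = 0.68, SE 0.23), and the pregnane X receptor (Nr1i2) one of 0.34 (adjusted p = 0.686, SE 0.18). The lipid sensor Ppara and the antioxidant factor Nfe2l2, named after their values were seen, had log2 fold changes of 0.30 and -0.09.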

How the data were processed

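RNA from whole liver, kept in RNAlater and extracted with Trizol, was made into libraries with the TruSeq Stranded mRNA kit, per the labels' protocols. With no order of steps, the mouse build mm10 is named together with HISAT2 2.1.0 and Bowtie2 2.3.4.1, StringTie 2.1.3b, bcl2fastq 2.20.0 and FastQC 0.11.7, per the submitters' processing notes. Whether counting used strand, which annotation it used and how it treated multiply matching reads is not given in the sources used here. Raw counts of reads for 45777 genes were deposited in a single table, per the file headers. The deposited FPKM values were not used. The deposited TPM values served for levels between genes and for 2 alternatives. In each library more genes had 2 reads than 1 (847 against 649 in Pak4_KO replicate 1), so both mates of a pair may have been counted, which would make the totals overstate the precision.

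Counts were tested with edgeR 4.0.16 (R 4.3.3): filterByExpr left 16197 genes, libraries were scaled by TMM, and the two-sided quasi-likelihood F-test compared Pak4_KO with WT over all 6 libraries, with Benjamini-Hochberg adjustment over all genes tested and a threshold of 0.05. Each SE was taken as the size of the log2 fold change over the root of its F value. CPM are counts scaled by TMM-adjusted library totals. The procedure was tested on simulated data. Alternatives were DESeq2 1.42.0 (size factors, Wald test), limma 3.58.1 (voom, and trend on log2 of TPM plus 1 or 0.1), upper quartile or library size scaling, other count filters, a replicate block, and leaving out single libraries. Replicates of a group differed by more than sampling noise, with a chi-square per gene of at least 64.2 for each pair.

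Coordinates (1-based) and promoters are from RefSeq GRCm38.p6, the build also called mm10, in which all 75 genes matched by NCBI gene identifier. Shared 50-base windows were counted between each gene's longest coding transcript and all GENCODE M21 transcripts. Named genes are, per family, the 3 with the smallest p and the 3 with the highest mean TPM, the 2 with the smallest p per list of other genes, and any within 20 Mb of Pak4. Others are said to be chosen after their values were seen, or stand in counts. Some values are not reported here, though counts over all tested genes include them. Members and lists were chosen with earlier results of these data known.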

Additional observations from a re-analysis of the deposited data

How the results depend on the processing

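Of the 56 tested enzyme genes, 0 were called by edgeR under each scaling, filter and design tried, with any 1 library left out (0 to 0), and by limma-voom, while DESeq2's Wald test called 4 and limma-trend on log2(TPM + 1) or log2(TPM + 0.1) called 1 each, Ces2e (adjusted p = 0.0429 and 0.0316). Over all genes the count of 76 became 44 with at least 10 reads in every library, where fewer genes were tested, 334 with DESeq2 (cause not tested), and 37 to 81 with 1 library left out. With 1 library left out, enzyme genes without overlap numbered 15 to 27 (25.4% to 46.6% of those tested, against 20.3% to 26.4% of all genes), and those at an unadjusted p under 0.05 numbered 9 to 19 (15.3% to 32.8%, against 6.17% to 9.24% of all genes). The unadjusted count was looked at across alternatives after the data were seen. Pak4 stayed lower throughout, at log2 fold changes of -1.99 to -1.65 with 1 library left out, with an adjusted p of 0.0936, 0.0562 and 0.0608 without Pak4_KO replicate 3, WT replicate 1 and WT replicate 2.

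Among the genes followed across all alternatives, signs turned for those given next. Library size scaling moved the median of all genes by 0.051, as did the log2(TPM + 1) fit, and the log2(TPM + 0.1) fit moved it by 0.077, so part of these shifts was shared by all genes. Fmo1 stood at 0.0018 with library size only and 0.017 in both TPM fits, Fmo5 at 0.012 and 0.013 in the TPM fits, and Akr1a1 at 0.017 in both. With 1 library left out, log2 fold changes ran from -0.27 to 0.14 for Fmo1, from -0.44 to 0.38 for Fmo5, from -0.044 to 0.40 for Aox3, from -0.024 to 2.78 for Ces2b, from -0.017 to 0.63 for Ces2c, from -0.69 to 0.085 for Akr1c14, from -0.42 to 0.16 for Adh1 and from -0.13 to 0.37 for Ces2a. The cause of these left-out changes was not tested. No label says that a replicate number marks a shared litter or day, so the numbers were not taken as pairs. Same-numbered libraries deviated with correlations of 0.067, -0.20 and 0.15, and unlike-numbered ones with -0.24 to 0.19. With 3 libraries in a group these values cannot decide the pairing. With the replicate block 73 genes and 0 enzyme genes were called, and Pak4 stood at -1.84 (edgeR adjusted p = 0.0258). In that fit 10 enzyme genes had an unadjusted p under 0.05. The share of all genes at that level in the block fit is not given here, so the 10 cannot be weighed against it. Depth limits the 19 untested genes.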

Other observations

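Genes next to these families, outside the rule that chose them, were read from the same edgeR fit. Akr1d1, the steroid 5beta-reductase of bile acid synthesis, had 3361, 3069 and 3061 reads in the Pak4_KO livers, against 3128, 6320 and 5556 reads in the WT livers. The highest Pak4_KO library held more reads than the lowest WT library, and the log2 fold change was -0.65 (adjusted p = 0.365, SE 0.20). Aldh9a1, an aldehyde dehydrogenase of carnitine synthesis, had 7253, 6030 and 7709 reads in the Pak4_KO livers, against 6807, 6732 and 7027 reads in the WT livers, with a log2 fold change of -0.00043 (adjusted p = 0.999, SE 0.15). Ces2d-ps, a transcribed pseudogene beside Ces2c on chromosome 8, had 949, 586 and 514 reads in the Pak4_KO livers, against 474, 551 and 566 reads in the WT livers. As for Ces2b and Ces2c, Pak4_KO replicate 1 was its highest library, and the log2 fold change was 0.37 (adjusted p = 0.811, SE 0.27). Ces2c shares 38.2% of its 50-base windows with Ces2d-ps, so reads of the pair cannot be fully told apart. Adh6-ps1, a transcribed pseudogene in the Adh cluster, showed a log2 fold change of -0.31 (adjusted p = 0.887, SE 0.32).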
